A study of Mus musculus with 41 samples.

Results

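The 7 genes Ung, Neil1, Apex1, Apex2, Msh6, Exo1 and Polh encode repair proteins that act on DNA during somatic hypermutation and class switch recombination. They were chosen by name and not by their levels, but with earlier results of these data known. All 7 were present among the 50763 genes of the count table. They were also in the table of TPM (transcript abundance scaled to a fixed total, a level per exonic length). Polyadenylated RNA had been sequenced in bulk from splenic B cells sorted into 6 subsets. The mice were 3 to 5 months old and were wild type (wt) or Mek1flox/flox Mek2+/- Tg+/Vav1-icre, which the labels shorten to 1Mek2. Vav1-icre drives Cre recombinase in all blood lineages, so the deletion was not restricted to B cells. Mek1 (Map2k1) and Mek2 (Map2k2) are the kinases that activate ERK. The Immature gate was B220+CD93+CD138-, and the Plasma gate B220+CD138+. The other stated gates lay within B220+CD93-CD138- cells: GL7+FAS+ for germinal center (GC), GL7-FAS-CD21+CD23+ for Follicular and GL7-FAS-CD21+CD23- for MarginalZone. ABC are age-associated B cells, and their gate is not stated in the labels. Each genotype gave 4 GC and 4 Follicular libraries and 3 libraries of each other subset, 40 in all, with different animals within a group. An Immature library labelled 1Mek2 whose name reads Mek1ff was left out, and a GC library of the same animal, 565, labelled wt but also named Mek1ff, was kept as replicate 4 of wt GC.

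Somatic hypermutation and class switching both begin with uracils in the DNA of immunoglobulin genes, mostly in germinal center B cells and in B cells activated to switch. In base excision repair, UNG removes the uracil and an apurinic endonuclease cuts the strand at the abasic site that is left. In the mismatch repair route, MSH6 helps to bind the U:G mismatch, EXO1 removes a stretch of the strand, and the error-prone polymerase eta (Polh) fills the gap, which places mutations at A:T pairs. These proteins also repair DNA in every dividing cell.

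The count table places Ung at chromosome 5, 114268427 to 114277382 (plus strand), Neil1 at chromosome 9, 57050072 to 57055973 (minus strand), and Apex1 at chromosome 14, 51162406 to 51164645 (plus strand), all in GRCm39. Apex2 lies at chromosome X, 149286625 to 149371175 (minus strand), and Msh6 at chromosome 17, 88282478 to 88298320 (plus strand). Exo1 lies at chromosome 1, 175708334 to 175738962 (plus strand), and Polh at chromosome 17, 46482281 to 46513567 (minus strand). Reads were counted over the whole gene from start to end, introns included (gene-span counts), so neighbours matter. The Apex2 interval shares 23172 bases with Alas2, which had 0 gene-span counts over all libraries but 4728 reads on its exons. Shared reads were thus not counted for Alas2, and the sources used here do not say whether they were counted for Apex2. The 4 members printed next are those called higher in GC than in Follicular B cells of wt mice that were matched in the RefSeq promoter table, where 5 of the 7 members had an entry (not Exo1 and Apex2). Each sequence is the 250 bases before the gene start, in transcript orientation, from RefSeq GRCm38.p6: chr5:114130185-114130434 (plus strand) for Ung, chr9:57148306-57148555 (minus strand) for Neil1, chr17:87974800-87975049 (plus strand) for Msh6 and chr17:46202642-46202891 (minus strand) for Polh. Capitals mark matches, on either strand, to the E2F words TTTCCCGC, TTTCGCGC, TTTGCCGC and TTTGGCGC, to CCAAT, to the GC box GGGCGG or to the E-box CAGGTG.
Ung: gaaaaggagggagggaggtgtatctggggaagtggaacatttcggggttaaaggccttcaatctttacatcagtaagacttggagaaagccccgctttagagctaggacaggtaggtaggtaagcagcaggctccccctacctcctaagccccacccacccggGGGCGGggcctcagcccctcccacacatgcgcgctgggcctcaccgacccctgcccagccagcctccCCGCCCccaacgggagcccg
Neil1: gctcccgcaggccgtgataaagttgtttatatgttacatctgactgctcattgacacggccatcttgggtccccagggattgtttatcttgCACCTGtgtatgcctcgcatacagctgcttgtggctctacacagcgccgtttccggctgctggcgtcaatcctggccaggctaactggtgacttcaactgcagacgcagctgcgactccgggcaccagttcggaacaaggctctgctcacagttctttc
Msh6: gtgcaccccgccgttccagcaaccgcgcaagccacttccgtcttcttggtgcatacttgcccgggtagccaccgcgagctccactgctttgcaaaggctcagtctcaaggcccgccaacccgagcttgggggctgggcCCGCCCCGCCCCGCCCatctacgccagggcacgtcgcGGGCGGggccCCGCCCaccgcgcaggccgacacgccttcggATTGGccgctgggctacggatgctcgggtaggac
Polh: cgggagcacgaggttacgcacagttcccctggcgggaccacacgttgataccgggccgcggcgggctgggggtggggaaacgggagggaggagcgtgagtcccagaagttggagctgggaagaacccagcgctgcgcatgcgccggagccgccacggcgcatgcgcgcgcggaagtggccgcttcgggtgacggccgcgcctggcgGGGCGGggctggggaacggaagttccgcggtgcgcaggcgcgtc
Neil1 had 1 E-box (read as CACCTG here) and no GC box, whereas Polh had 1 GC box, Ung had 2 and Msh6 had 5 GC boxes, some overlapping, and 1 CCAAT read as ATTGG. Of 32851 mouse promoter windows of this length, 17.2% held the E-box, 32.7% a GC box, 33.8% a CCAAT and 1.86% one of the E2F words. None of the E2F words was in these windows, and a match of letters is no binding site.

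Gene-span counts totalled 7883989 to 34925667 per library and reads on exons 7897848 to 29204625. Levels are given as CPM, read counts relative to library size, scaled over the 40 libraries by the trimmed mean of M values (TMM). Map2k1 was lower without overlap with 1Mek2 in ABC (424 to 1241 CPM in wt, 213 to 269 in 1Mek2) and overlapped in the other 5 subsets, with lower means in Immature, Follicular and MarginalZone. Mean Map2k2 was higher with 1Mek2 in all 6 subsets, so the text speaks of libraries labelled 1Mek2. Animals 562 (wt), 634 and 654 (1Mek2) had 61.2 to 102 CPM of Ddx3y, a Y-linked gene, on exons, and the others at most 0.0677. The ABC, Follicular, MarginalZone and Plasma libraries were split into 7 and 19 by the first principal component of 800 genes. The split was made by animal, at a mean score of 0. Scores ran from 6.33 to 24.04 in the 7 libraries and from -11.07 to 1.98 in the 19. These are called type 1 and type 2, are not in the labels, and were not assigned to Immature and GC libraries. Animals 358, 487 and 636, whose libraries here were of type 1, also gave Immature and GC libraries. Markers were summed to check the labelled subsets, and the check did not hold for every label. GC markers ran from 1948 to 4526 CPM in wt GC, 928 to 1545 in wt ABC and 160 to 608 in wt Immature libraries. Immature markers were at 55.4 to 69.3 CPM in wt Immature libraries, and higher in wt ABC (268 to 399) and in part of wt Plasma (47.0 to 123). The genes of this list did not move together. Cd93, the gene of the gate's CD93, averaged 34.3 CPM in wt Immature, 11.9 in wt ABC and 53.0 in wt Plasma libraries. Dntt averaged 2.40 CPM in wt Immature, 150 in wt ABC and 10.3 in wt Plasma libraries. Ms4a1, Ighd, Trac, Alas2 and Gzma were at 0 in every gene-span count and checked nothing. In bulk RNA, fewer cells of a type and less RNA per cell cannot be told apart.

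By group means, GC B cells held the most Neil1, Exo1 and Ung of the 6 wt subsets, both by gene-span counts and on exon reads. Msh6 was highest in GC on exons only, and Polh by gene-span counts only: on exons wt ABC came first at 70.9 ± 108 CPM (SD, n = 3), through replicate 2, against 43.0 ± 17.0 in GC. Apex1 was also highest in GC by gene-span counts only, at 86.7 ± 37.7 CPM, where it overlapped Immature at 73.1 ± 13.7. On exons wt ABC came first for Apex1, at 121 ± 124 CPM against 119 ± 43.4 in GC. Per exonic length, Neil1 led the members in wt GC at 447 ± 96.5 TPM (SD, n = 4), followed by Apex1 at 221 ± 47.8, Msh6 at 83.7 ± 13.0, Ung at 46.5 ± 24.0, Polh at 32.7 ± 10.4, Exo1 at 16.9 ± 10.7 and Apex2 at 3.44 ± 1.16 TPM. In wt Follicular cells the order began instead with Apex1 at 92.9 TPM and Neil1 at 32.8. Against Follicular cells, 5 of the 7 members were called higher in wt GC (edgeR's quasi-likelihood test, Benjamini-Hochberg adjusted p under 0.05), where 14.6% of 15638 genes tested were called higher, and the members' median log2 difference was 2.11 against 0.04 over all genes. In libraries labelled 1Mek2, 4 of 7 were called higher, where 16.3% of genes were, with a median of 1.71 against -0.09. No member was called lower. GC and Follicular libraries shared no animal in wt and 1 animal, 636, in 1Mek2, and 3 of 4 Follicular libraries in each genotype were of type 2. Subset and library type cannot be fully told apart here, so values of the type 1 Follicular libraries (wt replicate 4, 1Mek2 replicate 2) are given beside each member.

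**Figure D1:**
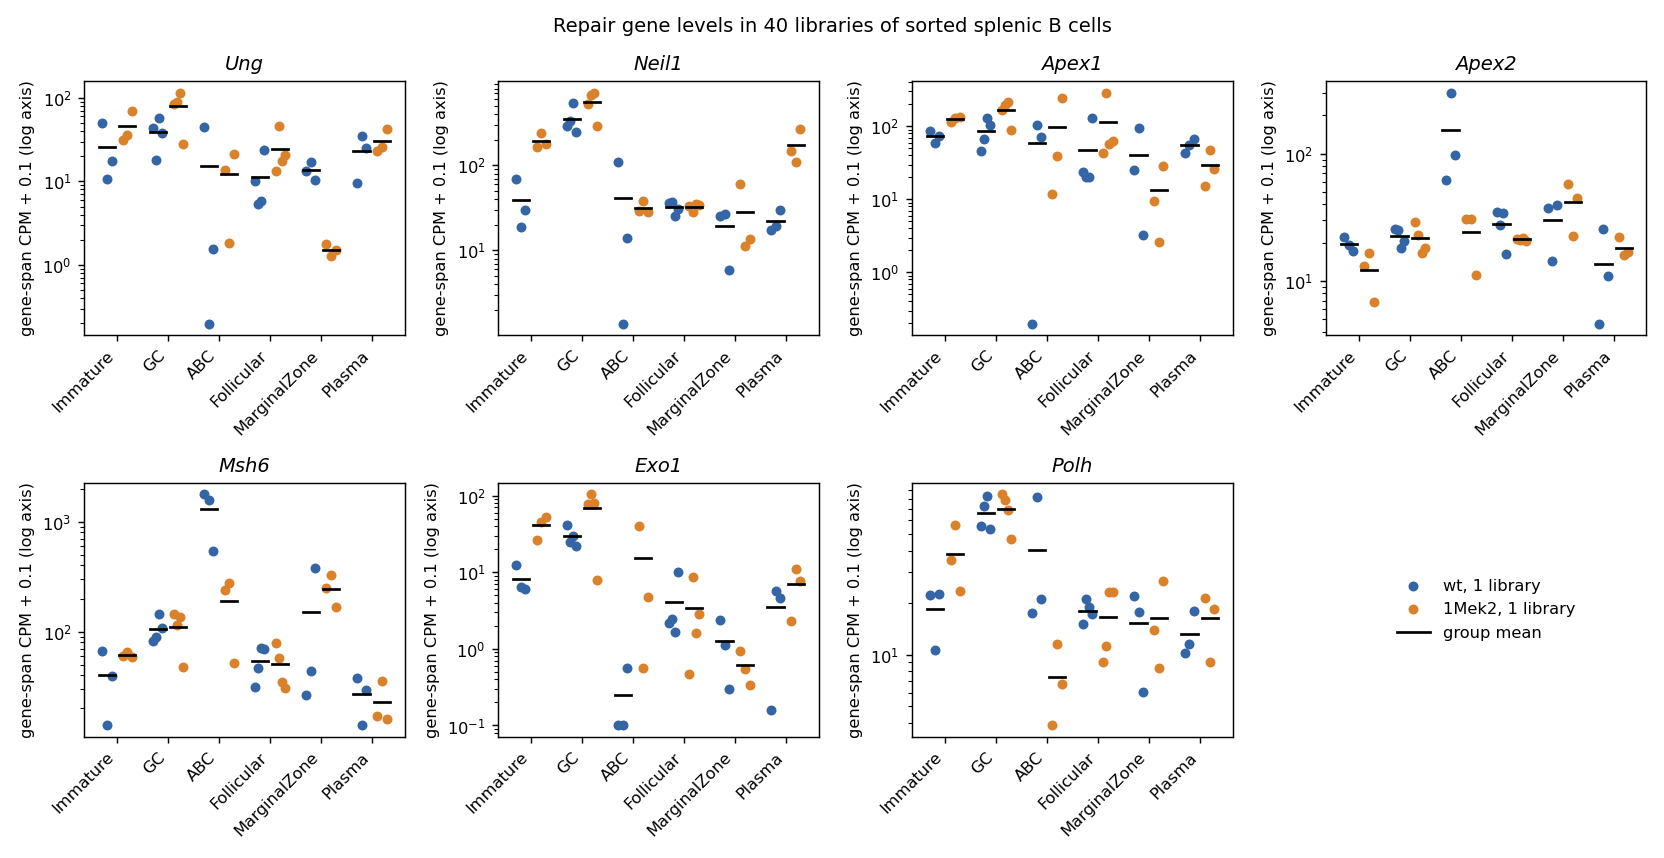
Gene-span CPM plus 0.1 on a log axis for each of the 7 members in 6 subsets; a point is 1 library (wt blue, 1Mek2 orange) and a bar the group mean. Neil1 in wt GC (244 to 537 CPM) lay above the wt libraries of every other subset. Apex1 spread widely within ABC, Follicular and MarginalZone groups, and Ung within ABC and Follicular groups.

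Ung, the uracil glycosylase that opens the base excision route, was at 43.2, 17.9, 58.0 and 38.3 gene-span CPM in wt GC replicates 1 to 4 and at 9.98, 5.28, 5.71 and 23.4 CPM in wt Follicular replicates. The ranges overlapped, because the highest Follicular library, replicate 4 of type 1, was above the lowest GC library. The log2 difference was 2.11 ± 0.55 (SE; adjusted p = 0.0124). Labelled 1Mek2, Ung was at 84.6, 88.3, 115 and 28.0 CPM in GC and at 13.2, 46.1, 17.3 and 20.4 CPM in Follicular libraries, a log2 difference of 1.71 ± 0.50 (adjusted p = 0.0223). These ranges overlapped as well, through GC replicate 4 and the type 1 Follicular replicate 2, and on exon reads the difference was not called (adjusted p = 0.0764).

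Neil1, a glycosylase that removes oxidised bases, was apart without overlap in both genotypes. It was at 287, 329, 537 and 244 CPM in wt GC against 36.2, 37.4, 25.3 and 30.7 CPM in wt Follicular libraries. The lowest GC library lay far above the highest Follicular one, and the type 1 Follicular library was not the highest of its group. The log2 difference was 3.65 ± 0.34 (adjusted p = 1.1e-05). Labelled 1Mek2, Neil1 was at 522, 669, 717 and 290 CPM in GC and at 33.0, 28.2, 34.6 and 34.3 CPM in Follicular libraries, again without overlap, with a log2 difference of 4.08 ± 0.38 (adjusted p = 0.000183). In wt mice, the GC mean of 349 ± 130 CPM stood above ABC at 41.3 ± 58.6, Immature at 38.9 ± 26.1, Follicular at 32.4 ± 5.56, Plasma at 22.2 ± 6.79 and MarginalZone at 19.2 ± 11.7 CPM, and each of these 5 overlapped its neighbour. On exon reads, wt ABC replicate 1, at 402 CPM, reached the lowest GC level.

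Apex1, the main enzyme that cuts DNA at abasic sites, was at 46.4, 66.2, 131 and 103 CPM in wt GC and at 23.4, 20.3, 20.3 and 128 CPM in wt Follicular libraries. Follicular replicate 4 lay within the GC range and the other 3 below it. The log2 difference was 1.11 ± 0.59 (adjusted p = 0.188). Without that replicate it was 2.08 ± 0.37 (adjusted p = 0.000895). Labelled 1Mek2, Apex1 was at 169, 195, 216 and 89.0 CPM in GC and at 42.7, 289, 57.1 and 63.5 CPM in Follicular libraries. The log2 difference of 0.56 was not called with all libraries and was 1.62 ± 0.34 (adjusted p = 0.00511) without Follicular replicate 2. In each of the 5 groups that held a single type 1 library, that library had the most Apex1 of its group.

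Apex2, a relative of Apex1 with weaker endonuclease activity that also trims DNA ends, was at 25.7, 25.2, 17.9 and 20.4 CPM in wt GC and at 34.8, 27.4, 33.8 and 16.3 CPM in wt Follicular libraries. The ranges overlapped and the log2 difference was -0.06 ± 0.38. Labelled 1Mek2 it was 0.06.

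Msh6, a subunit of the complex that recognises mismatches, was at 81.9, 89.8, 146 and 108 CPM in wt GC and at 31.1, 46.6, 70.5 and 68.9 CPM in wt Follicular libraries. Every GC library was above every Follicular one, and the log2 difference was 1.23 ± 0.34 (adjusted p = 0.0165). On exon reads the levels were 134, 117, 144 and 175 CPM against 23.4, 27.7, 38.2 and 59.4 CPM, a log2 difference of 1.97 (adjusted p = 0.00223). Labelled 1Mek2, the gene-span difference of 1.14 ± 0.44 was not called (adjusted p = 0.0672), and the exon difference of 2.04 was (adjusted p = 0.00768). Exon reads made up 94.2 to 96.3% of gene-span reads of Msh6 in wt GC and 46.6 to 85.1% in wt Follicular libraries.

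Exo1, the exonuclease of mismatch repair, was at 41.6, 24.5, 29.8 and 22.1 CPM in wt GC and at 2.09, 2.39, 1.58 and 10.1 CPM in wt Follicular libraries. The groups did not overlap, and the type 1 Follicular library was the highest of its group. The log2 difference was 3.16 ± 0.64 (adjusted p = 0.00311). Labelled 1Mek2, Exo1 was at 78.6, 104, 80.9 and 7.90 CPM in GC and at 0.363, 8.65, 1.49 and 2.75 CPM in Follicular libraries, a log2 difference of 4.34 ± 0.93 (adjusted p = 0.00462). GC replicate 4 fell below the type 1 Follicular library, so these groups overlapped.

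Polh, the polymerase that copies across damaged bases and errs at A:T pairs, was at 55.7, 72.7, 83.1 and 52.9 CPM in wt GC and at 14.9, 21.0, 18.7 and 17.0 CPM in wt Follicular libraries. The groups were well apart, and the log2 difference was 2.12 ± 0.30 (adjusted p = 0.000373). Labelled 1Mek2, Polh was at 84.7, 78.4, 68.6 and 46.9 CPM in GC and at 8.91, 11.04, 23.1 and 22.9 CPM in Follicular libraries, with no overlap and a log2 difference of 2.10 ± 0.41 (adjusted p = 0.00264). The type 1 Follicular libraries, at 17.0 and 11.04 CPM, were within the range of type 2. Exon reads made up only 21.7 to 68.5% of its gene-span reads in wt GC and 34.0 to 54.9% in wt Follicular libraries, and the wt exon difference was 2.34 ± 0.43 (adjusted p = 0.0027).

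**Figure D2:**
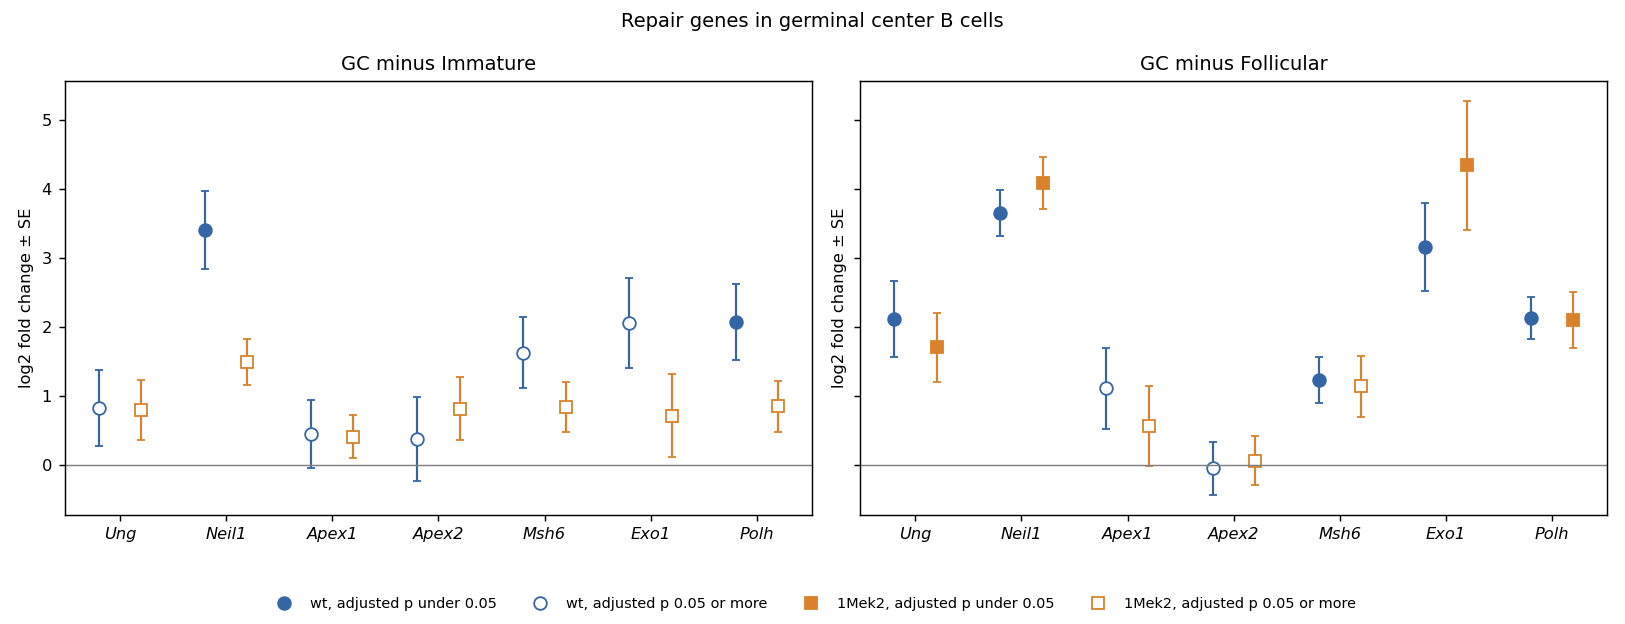
Log2 fold change with its standard error for each member, GC minus Immature and GC minus Follicular, in wt and in libraries labelled 1Mek2; filled symbols have an adjusted p under 0.05. Neil1 and Polh were filled in both wt comparisons, and no symbol was filled for GC minus Immature with 1Mek2.

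Against Immature cells, Neil1 and Polh were called higher in wt GC, 2 of the 7 members, where 1.94% of 22843 genes were called higher. All 7 differences were positive, with a median of 1.62 against 0.04 over all genes. Neil1 was at 68.4, 18.7 and 29.6 CPM in wt Immature libraries, below every GC value, and its log2 difference was 3.40 ± 0.56 (adjusted p = 1.22e-06). Polh was at 22.1, 10.5 and 22.3 CPM, also below every GC value, with a log2 difference of 2.06 ± 0.55 (adjusted p = 0.0103). Exo1 was at 12.3, 6.28 and 5.91 CPM, below every GC value too, yet its log2 difference of 2.06 ± 0.65 was not called (adjusted p = 0.0566). Msh6, at 66.3, 14.1 and 39.5 CPM, differed by 1.62 ± 0.52 (adjusted p = 0.0606). The remaining members differed less: Ung by 0.82 ± 0.55, Apex1 by 0.44 ± 0.50 and Apex2 by 0.37 ± 0.61.

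Immature and GC libraries came in part from the same animals, 358, 413 and 487 for wt and 323, 570 and 636 for 1Mek2, which allows a comparison within animals. With the animal as a block, 4 members were called in wt: Neil1 at 3.73 (adjusted p = 9.18e-09), Polh at 2.26 (adjusted p = 0.00258), Msh6 at 1.89 (adjusted p = 0.0141) and Exo1 at 2.26 (adjusted p = 0.0427). Without Immature replicate 2, the lowest for Neil1, no member was called without the block (edgeR), and the adjusted p of Neil1 was 0.0657. In libraries labelled 1Mek2, 0 of 7 members were called, where 0.273% of 17974 genes were called in either direction and 2107 had an unadjusted p under 0.05. Of the members, 3 had an unadjusted p under 0.05, DESeq2 called Neil1 alone, and limma voom called none. Neil1 differed there by 1.49 ± 0.33 (adjusted p = 0.0914). With the animal as a block, Neil1 at 1.70 (adjusted p = 0.00468), Msh6 at 1.08 (adjusted p = 0.0334) and Ung at 1.13 (adjusted p = 0.0408) were called.

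Taken animal by animal, Neil1, Exo1, Msh6, Polh and Apex2 were higher in the GC than in the Immature library of all 6 animals. The GC to Immature ratio ran from 2.79 to 18.1 for Neil1, from 1.52 to 5.04 for Exo1, from 1.24 to 6.37 for Msh6 and from 1.40 to 6.91 for Polh. The ratio of Apex2 ran from 1.05 to 2.46, and on exon reads it was above 1 in 5 animals. Ung was higher in 5 of 6 animals (0.866 to 3.36) and Apex1 in 5 of 6 (0.535 to 1.79), or in 6 and 4 on exon reads.

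**Figure D3:**
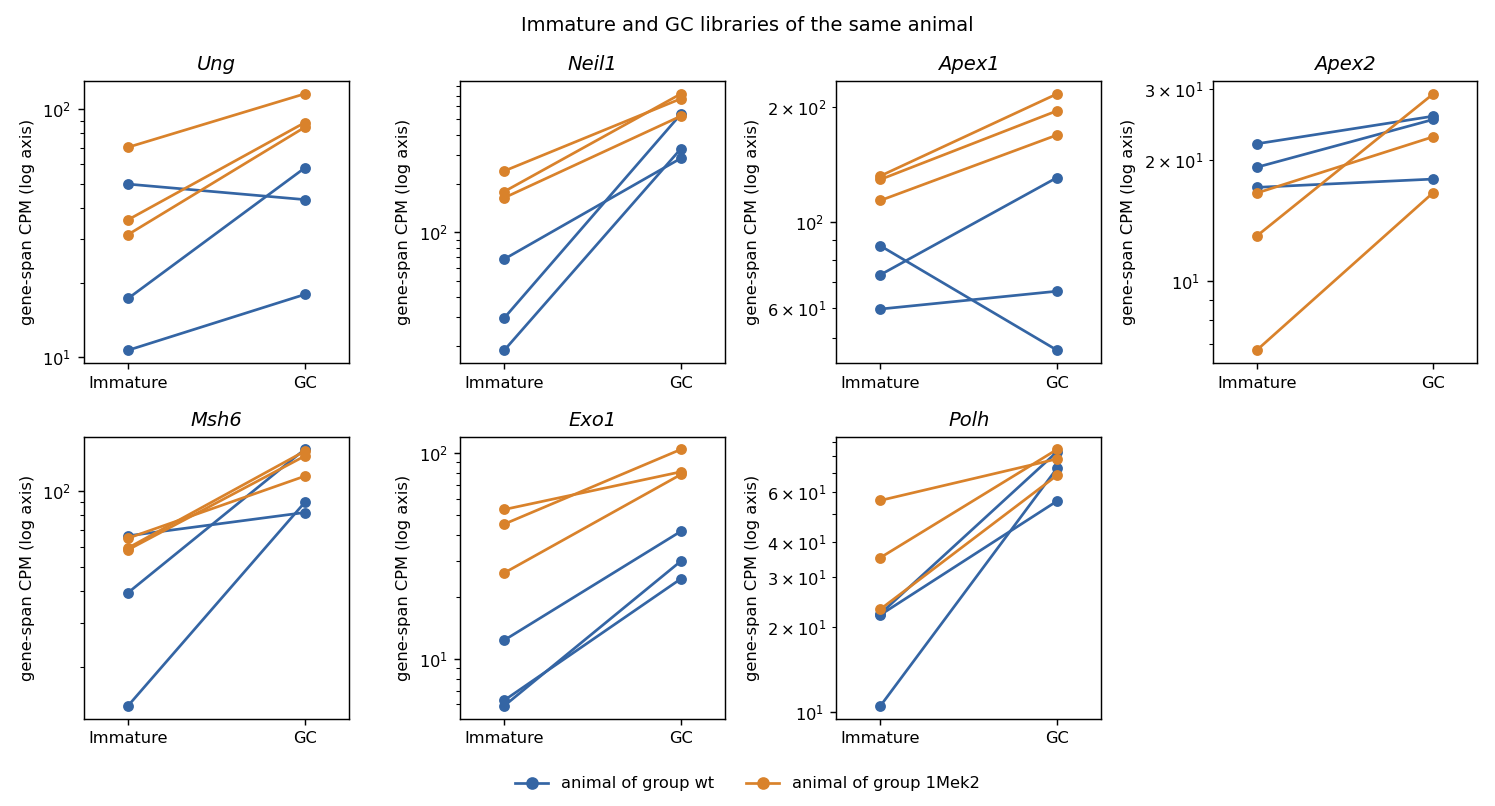
Gene-span CPM (log axis) in the Immature and the GC library of the same animal for each member; a line joins the libraries of 1 animal (wt blue, 1Mek2 orange). The Neil1 lines all rise, and the 3 animals of group 1Mek2 start above the 3 wt animals.

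Whether the GC to Immature difference itself differed between genotypes was tested directly. The test had no term for the animal, although some animals gave both libraries. No member was called (edgeR, every adjusted p = 1), no gene was called among 24136, and 837 genes and 1 member, Neil1, had an unadjusted p under 0.05. For Neil1, the GC to Immature difference in libraries labelled 1Mek2 minus that in wt was -1.74 ± 0.61 on the log2 scale.

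The wider repair lists were counted in the same comparisons. In wt GC minus Immature, where 1.94% of all genes were called higher, 4 of 18 tested genes of the base excision repair list were called higher, as were 3 of 13 for mismatch repair, 4 of 10 for translesion synthesis and 2 of 18 for break repair and end joining, and none was called lower. Neil3, a sister glycosylase of Neil1, differed by 2.90 (adjusted p = 4.12e-05) and Hmces, which shields abasic sites, by 2.68 (adjusted p = 0.000201). Lig1, a ligase that seals repaired strands, differed by 2.71 (adjusted p = 0.000115), the clamp loader subunits Rfc4 by 2.41 (adjusted p = 0.000761) and Rfc1 by 2.09 (adjusted p = 0.00687), and the polymerase genes Polq by 2.66 (adjusted p = 0.000475) and Rev3l by 2.00 (adjusted p = 0.00882). In end joining, Lig4 differed by 2.11 (adjusted p = 0.0290) and Rif1, which protects broken ends from resection, by 1.96 (adjusted p = 0.0107). Pcna, the sliding clamp that recruits Polh, differed by 1.96 (adjusted p = 0.0103). In wt GC minus Follicular, where 14.6% were called higher, 5 of 17, 9 of 13, 4 of 10 and 2 of 18 genes of the same lists were called higher and 2, 0, 0 and 2 lower. The share of all genes called lower is not reported here, so the lower counts are not set against it. The median log2 differences were 1.12 for mismatch repair and 1.13 for translesion synthesis, but 0.09 for base excision repair and -0.04 for break repair and end joining, against 0.04 over all genes. Of the cell division genes, 21 of 24 were called higher in wt GC than in Immature and 24 of 24 than in Follicular cells. Long neuronal genes, which B cells are not known to use, were taken as a stand-in for reads spread over introns, and this use was not tested. They were called higher in wt GC than in Follicular cells for 19 of 20 (230 to 1837 against 36.3 to 108 summed CPM) and for 0 of 20 against Immature cells. On exon reads the same 5 members were called higher in wt GC than in Follicular cells, with log2 differences of 3.71 for Neil1, 3.45 for Exo1, 2.39 for Ung, 2.34 for Polh and 1.97 for Msh6. The part of cell division in the members' differences was not tested.

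Outside GC, the members differed from Follicular cells in few comparisons, and the region counted mattered. In wt ABC, Msh6 and Apex2 were called higher (11.9% of 14357 genes were) and Exo1 lower (8.3% were). Markers of other cells moved with this comparison. Summed plasmacytoid dendritic cell markers (none of 5 at 0 throughout) ran from 3250 to 3664 CPM in wt ABC and from 95.7 to 197 in wt Follicular libraries, T cell markers (1 of 9 at 0) from 448 to 1095 against 56.1 to 152, and NK cell markers (1 of 5 at 0) from 41.2 to 539 against 4.88 to 11.95. B cell markers were lower, at 2897 to 4002 against 6074 to 8543 CPM. Their part in the members' differences was not tested. Msh6 was at 1779, 1573 and 543 gene-span CPM in wt ABC, above all 4 wt Follicular libraries, with a log2 difference of 4.88 ± 0.61 (adjusted p = 0.000859). On exon reads it was at 53.4, 15.5 and 41.4 CPM, which overlapped Follicular cells, and the log2 difference was 0.23 (adjusted p = 0.864). Exon reads were 0.41 to 4.85% of the gene-span reads of Msh6 in these 3 libraries, so nearly all its reads there lay outside its exons. The long neuronal genes summed to 1351 to 4756 CPM in wt ABC and 36.3 to 108 CPM in wt Follicular libraries. Their part in the Msh6 counts was not tested.

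**Figure D4:**
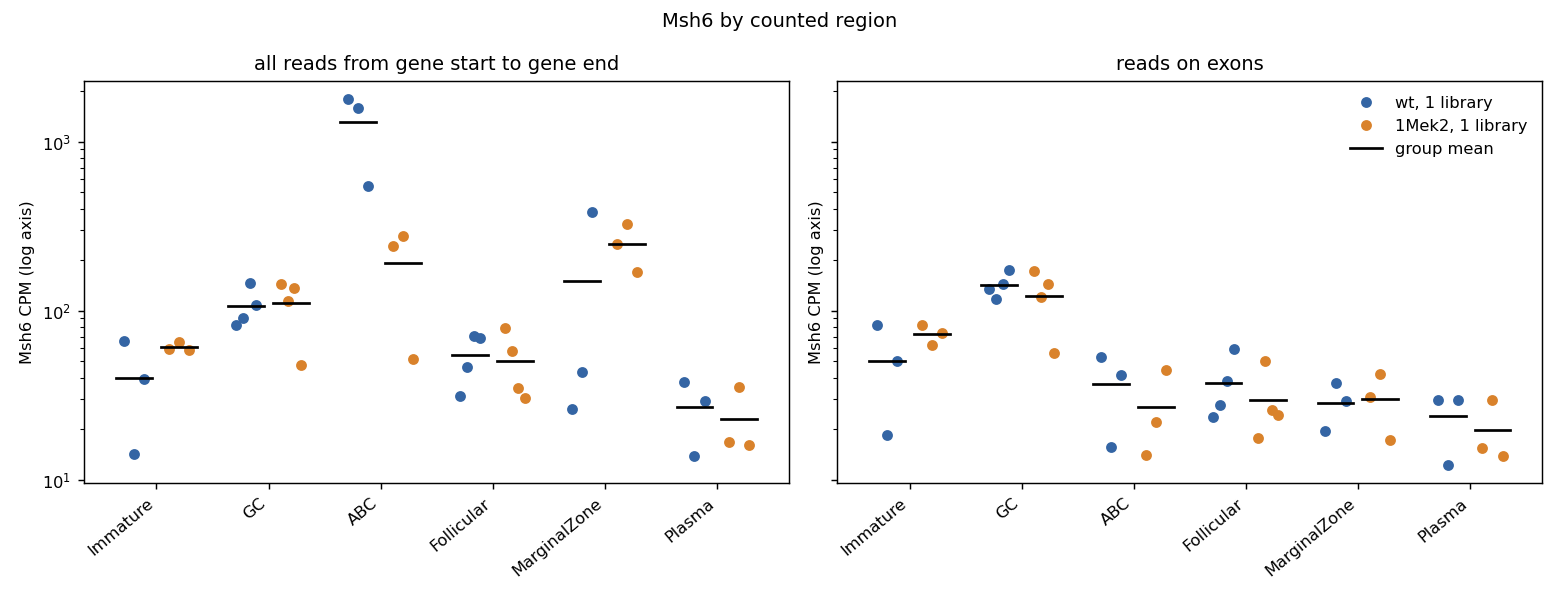
Msh6 in CPM (log axis) from reads over the whole gene (left) and from reads on exons (right), for each of the 40 libraries; bars are group means. ABC of wt mice were highest by gene-span counts (543 to 1779 CPM), whereas on exons wt GC libraries (117 to 175 CPM) were above all other wt libraries.

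Apex2 was at 61.7, 302 and 97.6 CPM in wt ABC, above the wt Follicular libraries, and differed by 2.71 ± 0.79 (adjusted p = 0.0354). The exon difference was 4.27 ± 1.17 (adjusted p = 0.0326), but exon levels of 19.6, 610 and 53.9 CPM left replicate 2 far above the others, and without replicate 2 the gene-span difference was 1.68 (adjusted p = 0.101). Exo1 had no count in wt ABC replicates 1 and 2, which allows up to 0.294 and 0.293 CPM (3 counts), and 0.459 CPM in replicate 3. The fitted log2 difference of -4.50 ± 1.44 (adjusted p = 0.0474) therefore depends on how zeros are handled. With the animal as a block, only Msh6 remained called, at 4.94, and likewise with a term for library type, at 5.08. Other members varied strongly among wt ABC libraries. Apex1 was at 0.098 CPM (1 count), 103 and 72.1 CPM, and Polh at 17.4, 82.0 and 20.8 CPM. In ABC labelled 1Mek2, no member was called against Follicular cells by edgeR, DESeq2 or limma voom, no gene passed in edgeR, and 1115 genes and 1 member, Msh6, had an unadjusted p under 0.05.

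In MarginalZone cells, which sit at the edge of the follicle and respond quickly to blood-borne antigen, no member differed from Follicular cells in wt by edgeR, DESeq2 or limma voom, and none had an unadjusted p under 0.05 (0.34% of 14699 genes were called). Labelled 1Mek2, Msh6 was called higher (1.4% of 13398 genes were) and Ung lower (1.39% were). Ung was at 1.69, 1.17 and 1.39 CPM by gene-span counts, below the libraries of the other 5 subsets of that genotype. The log2 difference was -4.12 ± 0.80 (adjusted p = 0.0307). On exon reads Ung ran from 1.55 to 2.00 CPM and overlapped ABC (1.87 to 19.1) and Follicular libraries (0.447 to 38.95). Exon reads made up 2.75 to 89.3% of the gene-span reads of Ung in those Follicular libraries. The exon difference of -3.45 was not called (adjusted p = 0.127). Msh6 was at 247, 324 and 169 gene-span CPM but 30.7, 42.0 and 17.1 CPM on exons, and its log2 difference was 2.22 ± 0.46 (adjusted p = 0.0357) by gene-span counts and 0.06 (adjusted p = 0.962) on exon reads. Long neuronal genes summed to 158 to 215 CPM in those MarginalZone and 18.4 to 56.4 CPM in those Follicular libraries, and neutrophil markers to 0.453 to 214 against 1.34 to 45.7 CPM; their part was not tested. Neither Msh6 nor Ung was called with the animal as a block, with a term for library type or with type 2 libraries alone.

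In Plasma cells, which have left the germinal center or arisen outside it and secrete antibody, no member was called against Follicular cells in wt by edgeR, DESeq2 or limma voom, and none had an unadjusted p under 0.05, although 17.7% of 15563 genes were called. Without Follicular replicate 4, Apex1 (1.60, adjusted p = 0.00576) and Ung (1.99, adjusted p = 0.0333) were called higher in Plasma. Labelled 1Mek2, Neil1 alone was called, higher by 2.50 ± 0.38 (adjusted p = 0.00164), where 13.9% of 14822 genes were called higher. Neil1 was at 148, 109 and 270 CPM in those Plasma libraries against at most 34.6 CPM in Follicular ones, with no overlap. Neutrophil markers ran from 2772 to 7892 summed CPM in those Plasma libraries against 1.34 to 45.7 in Follicular ones, T cell markers from 2031 to 2179 against 132 to 439, erythroid markers (1 of 7 at 0) from 826 to 1597 against 38.7 to 390, and 12 of 24 cell division genes were called higher. The part of these in the Neil1 difference was not tested. Apex1 differed by -1.88 ± 0.73 without a call (adjusted p = 0.106) and was called lower with the animal as a block (-1.82, adjusted p = 0.00199), with a term for library type (-1.68, adjusted p = 0.00601) and in type 2 libraries alone (-1.35, adjusted p = 0.0348). With the term for library type, Msh6 was called as well (-1.23, adjusted p = 0.0497).

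Between genotypes, the Immature subset was the only one in which edgeR called members; calls by DESeq2 and limma voom in ABC, MarginalZone and Plasma cells are given with those subsets. Neil1 and Exo1, 2 of 7, were higher in libraries labelled 1Mek2, where 0.81% of 21115 genes were called higher and the median over all genes was -0.17. Neil1 was at 164, 239 and 179 CPM in 1Mek2 and at 68.4, 18.7 and 29.6 CPM in wt Immature libraries. The groups did not overlap, and the log2 difference was 2.35 ± 0.41 (adjusted p = 0.000476). Exo1 was at 26.1, 45.1 and 53.1 CPM against 12.3, 6.28 and 5.91 CPM, also without overlap, with a log2 difference of 2.38 ± 0.51 (adjusted p = 0.00383).

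The other members were not called in Immature cells. Polh was at 35.2, 56.0 and 23.1 CPM against 22.1, 10.5 and 22.3 CPM (1.12 ± 0.48, adjusted p = 0.420), and Apex1 at 114, 129 and 132 CPM against 86.9, 59.5 and 73.1 CPM (0.82 ± 0.38, adjusted p = 0.480). Both groups were apart. Apex2 was apart in the opposite direction, at 13.0, 16.6 and 6.75 CPM against 21.9, 19.2 and 17.1 CPM (-0.61 ± 0.57, adjusted p = 0.748). Ung (0.82 ± 0.48) and Msh6 (0.63 ± 0.43) overlapped between genotypes. The members' median was 0.82.

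Other marker genes moved with Neil1 and Exo1 in these Immature libraries. Summed cell division genes ran from 357 to 1839 CPM in wt and from 2570 to 4449 CPM with 1Mek2, and 9 of 24 were called higher. GC markers ran from 160 to 608 against 946 to 1367 CPM, Plasma markers from 314 to 1073 against 1860 to 6420 CPM, neutrophil markers from 0.958 to 3.58 against 0.432 to 303 CPM, and long neuronal genes from 785 to 1954 against 373 to 1133 CPM. Among the pathway lists, Neil3 (2.11), Rfc4 (1.91) and Pcna (1.51) were called higher and none lower, beside Fen1 and Usp1, which are named after their values were seen. The part of these markers in the result was not tested. With a term for background reads, taken as the summed long neuronal genes, no member was called (Neil1 1.87, adjusted p = 0.541). On exon reads Neil1 was called (2.13, adjusted p = 0.0349) and Exo1 was not (adjusted p = 0.0583), and without 1Mek2 replicate 3 neither was called (Neil1 adjusted p = 0.118).

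**Figure D5:**
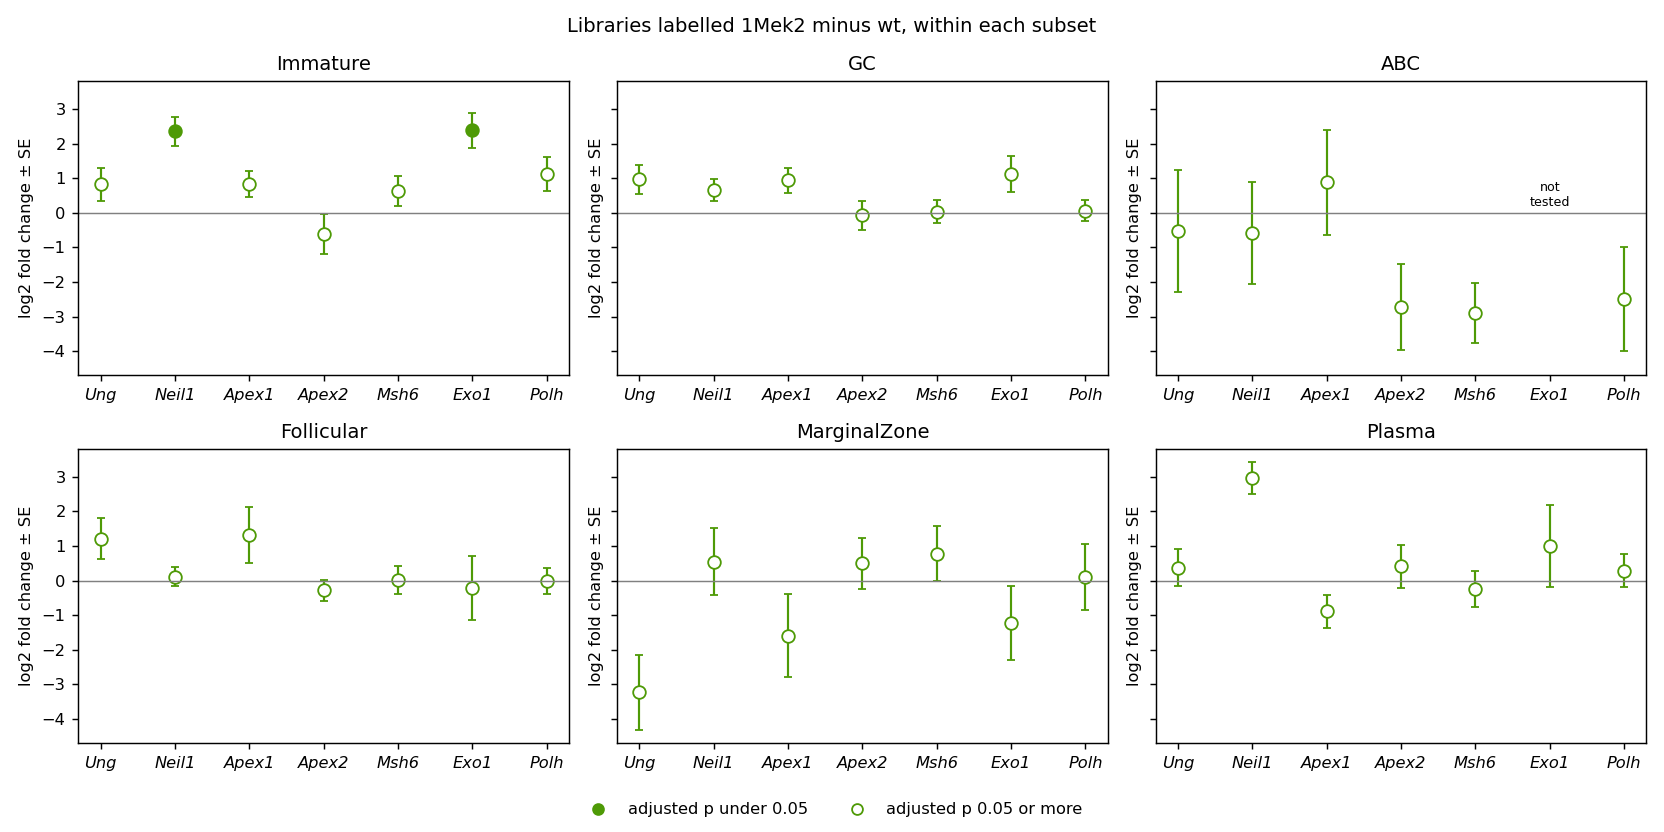
Log2 fold change with its standard error, libraries labelled 1Mek2 minus wt, for each member in each subset; filled symbols have an adjusted p under 0.05. Neil1 and Exo1 in Immature are filled, and Neil1 in Plasma is open at 2.96 (adjusted p = 0.0647).

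In Plasma cells Neil1 was at 148, 109 and 270 CPM in libraries labelled 1Mek2 and at 17.5, 19.1 and 30.0 CPM in wt. The groups were far apart, but the log2 difference of 2.96 ± 0.46 missed the threshold (adjusted p = 0.0647), in a comparison where 0.0605% of 14878 genes were called and 2285 had an unadjusted p under 0.05. It was called by limma voom (adjusted p = 0.0490), by DESeq2 (adjusted p = 1.8e-07) and with a term for library type (adjusted p = 0.0122), and not on exon reads (adjusted p = 0.0695). No other member had an unadjusted p under 0.05. In the same libraries the summed B cell markers ran from 436 to 817 CPM in wt and from 1768 to 2442 CPM with 1Mek2, and Plasma markers from 6947 to 17020 against 14710 to 33190 CPM. T cell markers ran from 2208 to 4158 against 2031 to 2179 CPM and neutrophil markers from 1489 to 4085 against 2772 to 7892 CPM. The part of these cells in the Neil1 difference was not tested.

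In GC cells no member was called between genotypes by edgeR, DESeq2 or limma voom. There 0.054% of 16681 genes were called, 2017 genes had an unadjusted p under 0.05, and so did Ung, Apex1 and Exo1. The groups overlapped for every member. The log2 differences were 1.13 ± 0.52 for Exo1, 0.97 ± 0.42 for Ung, 0.94 ± 0.35 for Apex1 and 0.65 ± 0.32 for Neil1, and 0.06 for Polh, 0.03 for Msh6 and -0.07 for Apex2. GC 1Mek2 replicate 4 was the lowest of its group for Ung, Neil1, Apex1, Msh6, Exo1 and Polh.

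In the remaining subsets edgeR called no member. In ABC, 0 of 6 tested members passed (Exo1 was below the filter), no gene was called, and 2517 genes and 2 members had an unadjusted p under 0.05. Msh6 (-2.90 ± 0.88), Apex2 (-2.72 ± 1.24) and Polh (-2.49 ± 1.51) were below wt without overlap by gene-span counts in libraries labelled 1Mek2. On exon reads all 3 overlapped: Msh6 was at 53.4, 15.5 and 41.4 CPM in wt and 14.0, 21.9 and 44.4 with 1Mek2, a log2 difference of -0.39 ± 1.51. Polh was at 0.727, 195 and 16.7 against 4.10, 5.21 and 3.66 CPM, and Apex2 at 19.6, 610 and 53.9 against 42.0, 13.7 and 9.99 CPM. In these libraries plasmacytoid dendritic cell markers ran from 3250 to 3664 summed CPM in wt and from 101 to 4882 with 1Mek2, and long neuronal genes from 1351 to 4756 against 24.4 to 713, and their part was not tested. DESeq2 called Msh6 and Apex2, limma voom neither. In Follicular cells no gene was called, 1570 had an unadjusted p under 0.05, no member did, and no member was called by DESeq2 or limma voom. With a term for library type, Apex1 was called higher there with 1Mek2 (1.42 ± 0.18, adjusted p = 0.0282). In MarginalZone cells no gene was called and 1132 had an unadjusted p under 0.05. Ung there was at 13.1, 16.9 and 10.3 CPM in wt and at 1.69, 1.17 and 1.39 CPM with 1Mek2. The groups were apart by a log2 difference of -3.23 ± 1.08, which edgeR did not call (adjusted p = 0.519), nor limma voom, while DESeq2 did.

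Averaged over the 6 subsets, with the animal as a random block, Neil1 was the 1 member called, higher by 1.30 ± 0.31 in libraries labelled 1Mek2 (limma, adjusted p = 0.00717), where 4.66% of 25181 genes were called higher and the median over all genes was -0.12. Exo1 differed by 1.53 ± 0.56 (adjusted p = 0.0970). Without animal 562 the Neil1 average was 1.00 (adjusted p = 0.0534), and without animal 405 Exo1 was called too (adjusted p = 0.0359). A test without a term for the animal asked whether the genotype difference varied between subsets. It called no member (edgeR, lowest adjusted p = 0.0979 for Exo1). There 2.0% of genes were called, 4363 genes had an unadjusted p under 0.05, and so did 6 members. The Neil1 calls in single subsets are therefore not shown to be particular to them.

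In libraries labelled 1Mek2, Neil1 had an order of levels with a gap. GC, at 550 ± 192 CPM, lay above Immature at 194 ± 40.1 and Plasma at 175 ± 83.9, which overlapped, and all of these lay above Follicular at 32.5 ± 2.99, ABC at 31.5 and MarginalZone at 28.1 CPM. In wt mice Immature and Plasma cells were instead among the low subsets. Exo1 in wt was highest in GC, at 29.5 ± 8.69 CPM, with no overlap with Immature at 8.17 ± 3.59 CPM. Polh in wt GC, at 66.1 ± 14.3 CPM, overlapped ABC at 40.1 CPM, through ABC replicate 2. Ung in wt GC, at 39.4 ± 16.6 CPM, overlapped the next subset.

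The genes most like each member over the 12 group means were taken from 11061 genes, by Pearson r of mean log2 CPM. All points share library depth and scaling, and r is a description. Neil1 was most like S1pr2 (0.960), the receptor that holds B cells in the germinal center, Fam83d (0.959) and Gstt1 (0.949). Exo1 was most like Hmgn2-ps (0.976), the spindle gene Tacc3 (0.974) and Siah1b (0.967), with 0.893 for Neil1. Msh6 by gene-span counts was most like Rad51b (0.971), Cops2 (0.965) and Caprin1 (0.958), and Apex2 most like Lyrm4 (0.971), Rragc (0.965) and Wdr59 (0.963). Ung was most like Zfp706 (0.970), Golt1b (0.969) and 4833439L19Rik (0.967), and Apex1 most like Wdr1 (0.951), Zfp422 (0.939) and Mrpl19 (0.927). Polh had the lowest best match of the 7, with Wapl at 0.916, followed by Atad1 (0.905) and Lsm14a (0.905).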

How the data were processed

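The 7 members and the gene lists were chosen with earlier results of these data known. The build GRCm39 and the tools featureCounts 2.0.3, Trim Galore 0.6.5 and STAR 2.7.11a are listed, per the submitters' processing notes. Raw counts, as deposited, cover 50763 genes, of which 50760 have 1 interval from gene start to gene end, per the file headers. The authors also deposited TPM for 41075 entries with exonic lengths, of which 41069 are in the count table. TPM times length gave whole multiples of 1 read for 100% of 851292 values checked (tolerance 0.02), and these recovered exon reads are the alternative to gene-span counts. Groups came from the labels, and the animal from the number in each library name (16 animals in the 40 libraries used of 41).

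Each comparison used edgeR 4.0.16 (TMM, filterByExpr, robust dispersions, quasi-likelihood F test) under R 4.3.3, with Benjamini-Hochberg adjustment over all genes tested and a call at adjusted p under 0.05. The average over subsets used limma 3.58.1 with the animal as a random block. SE is the log2 fold change divided by the root of F. Alternatives were exon reads, DESeq2-type (RLE) size factors, no filter, DESeq2 1.42.0, limma voom, a block and leaving out libraries; terms for library type and background reads were chosen after seeing the data. The tests were checked on simulated counts with the same spread for every gene and without library types, shared animals or background reads. That check does not cover these features of the data. Figures were drawn with Python 3.11.15. Reads carry no molecular identifiers, so limits for a count of 0 (3 counts) cover counting error only. Named were all 7 members, their 3 most similar genes (at least 5 CPM), and of the pathway lists Pcna and, in wt GC minus Immature, at most the 2 called genes of each list with the largest difference in each direction. Some further genes of the lists are not reported here.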

Additional observations from a re-analysis of the deposited data

Results flagged for a closer look

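In groups of 4 libraries, 3 values lay far from the other 3 of their group by Dixon's criterion. Apex1 was at 128.0 CPM in wt Follicular replicate 4 and at 289.4 CPM in 1Mek2 Follicular replicate 2, and Exo1 was at 10.08 CPM in wt Follicular replicate 4. Both libraries are of type 1. The criterion was applied to 28 gene-by-group sets, and chance alone flags about 1 in 20. The genotype difference of Polh pointed in opposite directions in Immature (1.12) and ABC (-2.49) cells, with the genotypes apart in both by gene-span counts. On exon reads they overlapped in ABC, where Polh was at 0.727, 195 and 16.7 CPM in wt and at 4.10, 5.21 and 3.66 with 1Mek2. The test of a difference between all 6 subsets did not call Polh (edgeR, adjusted p = 0.171), and Immature against ABC alone was not tested. In the Immature library left out of the comparisons, Apex1 was at 141.3 CPM without TMM scaling, against 96.2 to 113 in wt and 139 to 175 in 1Mek2 Immature libraries. Its Neil1, at 45.4 CPM, was in the wt range (30.3 to 89.0) and below the 1Mek2 range (216 to 256), as was its Exo1 at 9.62 CPM (8.78 to 16.0 in wt, 40.2 to 64.1 in 1Mek2).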

How the results depend on the processing

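Of 1721 member values under the alternatives, 1616 kept their side of the threshold, 64 lost a call, 41 gained one and 0 were called with the opposite sign. Among the 1616 were 111 uncalled values that changed sign. Counts of members called, for each comparison the count with all libraries first, changed as follows. GC minus Immature in wt had 2, with 1 under RLE size factors or no filter, 4 with the animal as a replicate block, and 0 to 2 with a library left out (Polh lost its call in most, and both were lost without Immature replicate 2). GC minus Immature in 1Mek2 had 0, with 1 under no filter or DESeq2, 3 with the animal block, and 0 to 2 with a library left out (2 without GC replicate 4: Neil1, adjusted p = 0.00186, and Msh6, 0.0270). GC minus Follicular had 5 in wt and 4 in 1Mek2, with 4 to 6 and 3 to 5 left out in turn. ABC minus Follicular in wt had 3, with 1 on exon reads, with the animal block, with the library type term and in type 2 libraries alone, and 1 to 3 with a library left out. In 1Mek2 it had 0 (0 to 1). MarginalZone minus Follicular in 1Mek2 had 2, with 0 on exon reads, under the block, the type term and type 2 alone (0 to 2 left out). Plasma minus Follicular in 1Mek2 had 1, with 2 under the block, 3 under the type term and 2 in type 2 libraries. In wt it had 0, with 1 under the type term and 0 to 2 left out.

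Between genotypes, Immature had 2, with 0 once background reads were a term, 1 on exon reads, and 0 to 3 left out. ABC had 0 and DESeq2 called 2. Follicular had 0 and the type term gave 1. MarginalZone had 0 and DESeq2 called 1. Plasma had 0 and no filter, DESeq2, voom and the type term gave 1 each. The average over subsets had 1 (0 to 2 with an animal left out). Replicate numbers of the labels name different animals in each genotype, so they pair nothing by design. With that number as a replicate block, Immature had 5 members called and the other subsets 0. The deviations of same-numbered libraries correlated at 0.14 and 0.32 for the 2 numbers shared in Immature, and in each other subset at least 1 shared number had a correlation under 0.1 (lowest -0.67). The cause of these changes was not tested. No block by animal was fitted for GC minus Follicular, whose groups share no animal in wt and 1 in 1Mek2, or for Plasma minus Follicular in wt, which share 1. Groups of 3 or 4 libraries and the spread among type 1 and type 2 libraries limit what could be called, and low Exo1 counts limit its fold changes outside GC and Immature cells.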
